A study of Mus musculus with 28 samples.

Results

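The choroid plexus of the lateral ventricle was compared between mice whose sleep had been disrupted and undisturbed mice taken at the same clock time. The members of the comparison are 8 of the 28 sequenced samples: 4 libraries labelled as sleep disrupted and 4 labelled as sleep. Both groups were wild-type C57/BL6 males of 3 to 4 months, collected 6 h into the light phase (zeitgeber time, ZT, 6). The first group had 6 h of sleep disruption immediately before collection. The labels do not say how the mice were kept awake, so loss of sleep and the handling it involved cannot be told apart. A further group of 4 wild-type males of the same age, collected undisturbed at night (ZT18), shares the model and is used below for context and for the estimate of the spread. All 12 mice were under isoflurane and were perfused with phosphate-buffered saline before the tissue was dissected and frozen. Poly(A) RNA was sequenced from 1 library a sample. The submitters' design text says that the sleep-disrupted group was included to separate time of day from normal sleep. All 12 libraries carry the same batch label. The labels do not tie libraries to separate litters or days, so p-values measure only the spread between these libraries.

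The choroid plexus is a sheet of epithelial cells around fenestrated capillaries that secretes cerebrospinal fluid (CSF) and forms a barrier between blood and CSF. Its epithelium moves sodium, chloride, bicarbonate and water into the ventricle and exports transport proteins and growth factors. A resident population of macrophages and other immune cells lies in the stroma and on the ventricular surface. The tissue also holds a circadian clock, in which the activators CLOCK and BMAL1 (encoded by Arntl) drive their own repressors, the PER and CRY proteins, and the nuclear receptor genes Nr1d1 and Nr1d2.

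No gene passed the test between sleep-disrupted and undisturbed choroid plexus. Of 14983 genes tested with edgeR's quasi-likelihood test, 0 (0%) had a Benjamini-Hochberg adjusted p under 0.05, and the smallest adjusted p was 0.861. At an unadjusted p under 0.05 there were 359 genes (2.40%), of which 224 (1.50%) had higher and 135 (0.901%) had lower values after sleep disruption. Where no gene differs, a share of about 0.05 falls under that p, so the count in this fit was not an excess. DESeq2 and limma-voom also called 0 genes, with 477 and 2907 genes at an unadjusted p under 0.05. All 4 sleep-disrupted libraries lay above all 4 undisturbed ones for 145 genes (0.968%) and below them for 150 genes (1.00%). The median log2 fold change over all genes tested was 0.00, and 50.8% of genes had a positive value. Every difference given below between these groups, where its unadjusted p was under 0.05, had an adjusted p of 0.861 in the same test.

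The intervals show which sizes of difference the 8 libraries could have missed. The 95% interval of the fold change lay wholly within 1.5-fold in either direction for 8691 genes (58.0%) and within 2-fold for 12708 genes (84.8%). Among the 5377 genes with a mean level of at least 5 in log2 CPM, 87.5% had an interval within 1.5-fold. Levels are given in CPM, counts scaled to a common library total with TMM factors, and they are not comparable between genes of different length.

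Total counts ran from 22466931 to 28203114 in the undisturbed and from 22585293 to 28219260 in the sleep-disrupted libraries. The defining genes of the labelled tissue were abundant, with a mean log2 CPM over 17 choroid epithelium markers of 10.26 ± 0.06 (SD, n = 4) in undisturbed and 10.22 ± 0.03 in sleep-disrupted libraries. The first principal component, with 38.5% of the variance of the 8 libraries, did not separate the groups: undisturbed library 2 lay at 17.5 among the sleep-disrupted libraries 2 to 4, and sleep-disrupted library 1 lay at −34.4 beyond the undisturbed ones. The fit drew its spread also from the 4 night libraries, and 1 of those stood apart. Night library 4 held 192 CPM of Adgre1, which encodes the macrophage surface protein F4/80, against 10.6 to 14.8 in the other night libraries. Without it, still no gene was called between the daytime groups, but 1073 of 15055 genes (7.13%) had an unadjusted p under 0.05. That alternative was chosen after the data were seen.

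No difference was detectable in genes that carry out CSF secretion, although the intervals of some were wide. Of 35 tested genes for ion and water transport, 13 had higher and 22 lower values after sleep disruption, none had an unadjusted p under 0.05, and the median log2 fold change was −0.04 beside 0.00 over all genes. Aqp1, the apical water channel, was at 364, 389, 334 and 268 CPM in undisturbed libraries 1 to 4 and at 291, 378, 333 and 381 CPM in sleep-disrupted libraries 1 to 4. The groups overlapped throughout, with a log2 fold change of 0.03 ± 0.19 (SE) and a 95% interval from −0.38 to 0.44. Slc12a2, which encodes the sodium, potassium and chloride cotransporter NKCC1, was at 2793, 2388, 2718 and 3129 CPM in undisturbed and at 2834, 2446, 2470 and 2152 CPM in sleep-disrupted libraries. Its log2 fold change was −0.16, with an interval from −0.40 to 0.09. Atp1b1, which encodes a beta subunit of the sodium pump, had a log2 fold change of −0.16 (interval −0.32 to 0.01). Car2, a carbonic anhydrase that supplies bicarbonate, gave one of the tightest estimates, at 491 ± 21.1 CPM against 490 ± 13.8 CPM, with a log2 interval from −0.14 to 0.13. The interval of the bicarbonate transporter Slc4a5, from −0.27 to 0.15, was 1 of 21 of the 35 genes to lie inside 1.5-fold, and 30 lay inside 2-fold. Estimates over the list ran from −0.50 to 0.69. Fxyd1, which encodes a modulator of the sodium pump, had a wider interval, from −0.04 to 1.06 around 0.51.

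**Figure D1:**
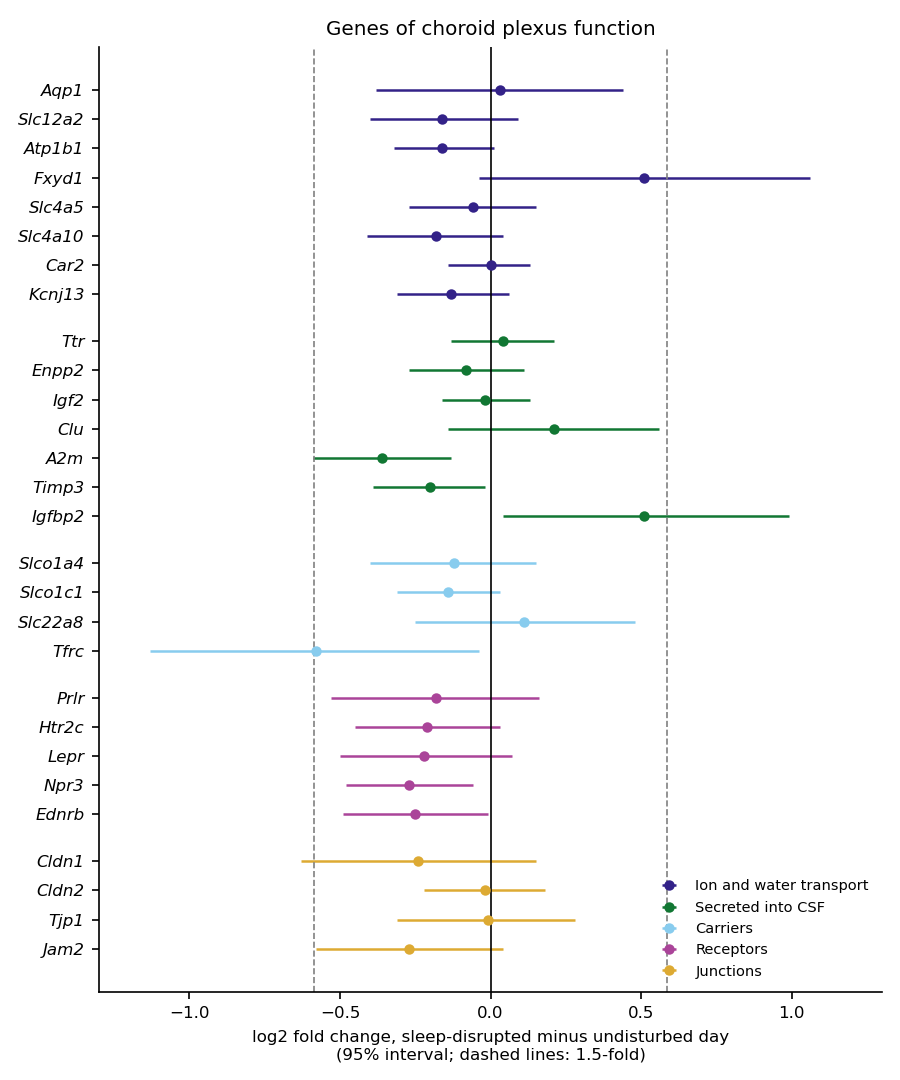
Log2 fold change (x axis, sleep-disrupted minus undisturbed day, with 95% intervals from edgeR) of 28 genes of choroid plexus function, coloured by role. Dashed lines mark 1.5-fold. The intervals of A2m (−0.36), Timp3 (−0.20), Npr3 (−0.27), Ednrb (−0.25), Tfrc (−0.58) and Igfbp2 (0.51, or 0.22 after GC correction) leave out 0, and those of the other genes cross it.

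Proteins that the epithelium secretes were balanced in direction, with 13 of 26 tested genes higher and 13 lower and a median of 0.01. Ttr, which encodes the thyroid hormone carrier transthyretin, was at 5210 ± 308 CPM in undisturbed and 5371 ± 363 CPM in sleep-disrupted libraries (log2 fold change 0.04, interval −0.13 to 0.21). Igf2, a growth factor, and Enpp2, the enzyme that makes lysophosphatidic acid, differed by −0.02 and −0.08, with intervals from −0.16 to 0.13 and from −0.27 to 0.11. A2m, the protease inhibitor alpha-2-macroglobulin, was the member whose groups did not overlap. It was at 396, 320, 350 and 322 CPM in undisturbed and at 247, 269, 277 and 288 CPM in sleep-disrupted libraries, a log2 fold change of −0.36 ± 0.10. Timp3, an inhibitor of matrix metalloproteinases, was at −0.20 ± 0.08, and its groups overlapped because sleep-disrupted library 1, at 1612 CPM, lay above undisturbed library 2, at 1605 CPM. Igfbp2, a binding protein of insulin-like growth factors, had the opposite sign, at 0.51 ± 0.22, and was at 0.22 ± 0.11 after correction for the GC content of transcripts. When single libraries were left out, the medians of the lists for ion transport, secreted proteins, carriers, junctions and amyloid-beta handling stayed between −0.05 and 0.07.

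Among receptors through which the choroid plexus responds to hormones and transmitters, lower values were more frequent than higher ones, and none passed the test. Of 31 tested, 22 were lower and 9 higher, with a median of −0.14. Npr3, the clearance receptor of natriuretic peptides, was at 900, 695, 798 and 888 CPM in undisturbed and at 780, 659, 645 and 633 CPM in sleep-disrupted libraries. Its groups overlapped, and the log2 fold change was −0.27 ± 0.10 (interval −0.48 to −0.06). Ednrb, an endothelin receptor, was at −0.25 ± 0.11, or at −0.16 after GC correction. Htr2c, the serotonin receptor abundant in this epithelium, was at −0.21 with an interval from −0.45 to 0.03, and Prlr, the prolactin receptor, at −0.18 with an interval from −0.53 to 0.16. For the melatonin receptors Mtnr1a and Mtnr1b, 0 reads were counted in all 8 libraries. Among 32 carriers of solutes and hormones, 13 were higher and 19 lower, with a median of −0.02. Tfrc, the transferrin receptor that takes up iron, had the smallest p of the carriers and a log2 fold change of −0.58 ± 0.25. Its high value in undisturbed library 4 (255 CPM, against 127 to 145 CPM in the other undisturbed libraries) stood apart, and without that library the value of Tfrc was −0.30. Junction genes were balanced, with 11 of 24 higher and a median of −0.01. Cldn2, which forms cation pores in the tight junction, was at 1070 ± 70.9 CPM and 1055 ± 23.5 CPM, an interval from −0.22 to 0.18.

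Genes that handle amyloid-beta had a median of −0.02, with 13 of 26 higher. Ide, which encodes the insulin-degrading enzyme, an amyloid-beta protease, had the smallest p of this list. It was at 385, 347, 398 and 413 CPM in undisturbed and at 287, 263, 351 and 261 CPM in sleep-disrupted libraries. Sleep-disrupted library 3 lay above undisturbed library 2 and the other three lay below all undisturbed libraries, and the log2 fold change was −0.41 ± 0.12 (interval −0.68 to −0.14). Clu, the CSF chaperone clusterin, was at 0.21 with an interval from −0.14 to 0.56, and Lrp1, an uptake receptor, at 0.35 with an interval from −0.14 to 0.84.

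No difference in the clock of the choroid plexus was detectable after sleep disruption. Of 24 clock genes, 14 were higher and 10 lower, none had an unadjusted p under 0.05, and 17 had an interval within 1.5-fold. Nr1d1, which encodes the repressor REV-ERB alpha, was at 11.2, 16.3, 9.14 and 11.7 CPM in undisturbed and at 9.62, 13.8, 13.4 and 17.7 CPM in sleep-disrupted libraries. At night it was at 1.26 to 1.93 CPM, so both daytime groups lay wholly above the night libraries. The log2 fold change of Nr1d1 after sleep disruption was 0.17 (interval −0.28 to 0.63), and at night against the same undisturbed day libraries it was −3.02 ± 0.24 (adjusted p = 8.59e-05, edgeR). Arntl lay at 5.83 to 6.56 CPM in undisturbed, at 6.08 to 8.91 CPM in sleep-disrupted and at 24.2 to 43.3 CPM in night libraries. Its log2 fold change was 0.19 (interval −0.19 to 0.57) after sleep disruption and 2.50 at night (adjusted p = 4.47e-05, edgeR). For Cry1, a repressor of the loop, the pair of values was −0.06 (interval −0.25 to 0.14) and 1.17, for Nfil3, a repressor of clock output, 0.22 (−0.12 to 0.56) and 1.70, and for Nr1d2 −0.24 (−0.59 to 0.10) and −1.68. The night values share the undisturbed libraries with the sleep-disruption values, and 40 of all genes tested (0.267%) passed the test at night, 10 of them clock genes. Without night library 4, 109 of 15055 genes passed it, 38 of them among those 40. Per1 and Per2, repressors of the loop that can also be induced acutely, were at 0.12 (interval −0.51 to 0.74) and 0.05 (−0.34 to 0.45).

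**Figure D2:**
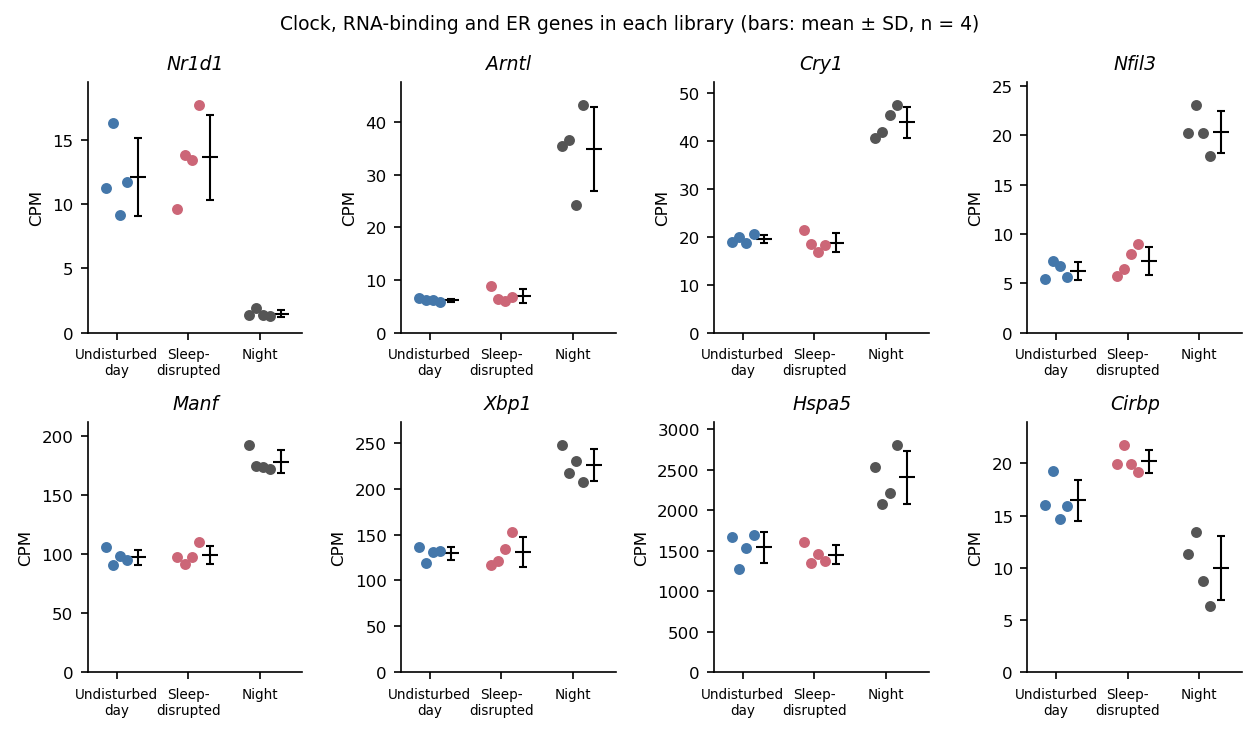
CPM (y axis, from 0) of 8 genes in each library of undisturbed day, sleep-disrupted and night choroid plexus, with the mean and SD of 4 libraries beside the points. In Nr1d1, Arntl, Cry1, Nfil3, Manf, Xbp1 and Hspa5 the sleep-disrupted points lie among or beside the undisturbed day points and apart from night, and in Cirbp both daytime groups lie above night.

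Chaperones of the endoplasmic reticulum, which fold secreted proteins, lay near their undisturbed daytime level. Of 30 tested, 18 were higher and 12 lower after sleep disruption, with a median of 0.02 and 24 intervals within 1.5-fold. At night the median of the same genes was 0.30. Of these genes, 7 passed the night test with higher values (adjusted p under 0.05, edgeR), beside 21 of all 14983 genes tested. Manf, a secreted folding factor, was at 97.5 ± 6.37 CPM in undisturbed, 99.5 ± 7.84 CPM in sleep-disrupted and 179 ± 9.88 CPM in night libraries. The log2 interval after sleep disruption ran from −0.14 to 0.20, and the night value was 0.87. Xbp1, a transcription factor of the unfolded protein response, was at 0.02 (interval −0.18 to 0.22) beside 0.80 at night, and the chaperone gene Hspa5 at −0.09 (−0.34 to 0.16) beside 0.65. Heat shock genes of the cytosol had a median of −0.02 over 21 members. Of 10 genes of RNA-binding proteins, the cold-inducible ones among them, 4 were higher and 6 lower. Cirbp, the cold-inducible RNA-binding protein gene, was at 16.5 ± 1.97 CPM in undisturbed and 20.2 ± 1.15 CPM in sleep-disrupted libraries (0.29, interval −0.10 to 0.69).

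Genes known to respond to sleep loss in the forebrain were more often lower than higher here, with a median that varied in size. Of 23 tested members of that list, 7 were higher and 16 lower, with a median of −0.10 that was −0.02 without undisturbed library 1, −0.42 without sleep-disrupted library 3 and 0.10 with the macrophage score as a covariate. The activity marker Homer1 was at 162 ± 27.8 CPM in undisturbed and 136 ± 24.8 CPM in sleep-disrupted libraries (−0.24, interval −0.65 to 0.17). Cdkn1a, a cell cycle inhibitor, was lower in every sleep-disrupted library, at 7.93 to 8.57 CPM against 9.25 to 10.8 CPM, a log2 fold change of −0.25 ± 0.10. Immediate early genes, which encode transcription factors induced within minutes of a stimulus, spread widely within both groups. Fos was at 31.4, 10.8, 2.12 and 10.9 CPM in undisturbed and at 5.37, 5.90, 35.7 and 4.72 CPM in sleep-disrupted libraries. Egr1 was at 103, 48.7, 11.9 and 38.5 CPM and at 17.8, 17.3, 160 and 34.2 CPM. In both genes, undisturbed library 1 and sleep-disrupted library 3 were the high ones of their groups. The 95% interval of Fos, from −1.87 to 1.68, leaves large differences in either direction undetectable.

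Glucocorticoid target genes, which report stress hormone signalling, were mixed. Of 26 tested, 11 were higher and 15 lower, with a median of −0.05 that ran from −0.11 without sleep-disrupted library 3 to 0.05 without sleep-disrupted library 1. With limma-voom the median was 0.14, and with the macrophage score as a covariate it was 0.07. Fkbp5, a chaperone that the glucocorticoid receptor induces, was at 9.05, 12.2, 11.9 and 16.4 CPM in undisturbed and at 12.3, 12.8, 13 and 13.9 CPM in sleep-disrupted libraries. The 4 sleep-disrupted values lay inside the undisturbed range, and the log2 interval ran from −0.31 to 0.44. Sgk1, a kinase that regulates ion transport, was at −0.05 (interval −0.34 to 0.23), Tsc22d3, the gene of the leucine zipper protein GILZ, at −0.17 (−0.83 to 0.50), and the receptor gene Nr3c1 at −0.13 (−0.48 to 0.21). The members that separated the groups upwards were Mt1, Mt2 and Angptl4, a secreted inhibitor of lipoprotein lipase. Groups did not overlap upwards in 3 of 26 members, beside 0.968% of all genes, and downwards in 1, beside 1.00%. Angptl4 was at 2.58, 2.44, 1.29 and 1.73 CPM in undisturbed and at 3.77, 4.09, 3.15 and 3.12 CPM in sleep-disrupted libraries, a log2 fold change of 0.81 ± 0.28.

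Metallothioneins are small cysteine-rich proteins that buffer zinc and copper, and Mt1 and Mt2 can be induced by zinc, glucocorticoids and inflammatory signals. Both genes, neighbours on chromosome 8 (GRCm38.p6, Mt2 at chr8:94172618-94173567 and Mt1 at chr8:94178883-94180327), were at low levels and higher in every sleep-disrupted library. Mt1 was at 2.63, 3.39, 2.29 and 2.60 CPM in undisturbed and at 3.50, 4.92, 4.01 and 4.35 CPM in sleep-disrupted libraries. The log2 fold change was 0.62 ± 0.19 (interval 0.21 to 1.03). Mt2 was at 0.317, 0.543, 0.291 and 0.315 CPM and at 0.708, 0.568, 0.991 and 0.603 CPM, a log2 fold change of 0.94 ± 0.28 (0.33 to 1.55). The lowest sleep-disrupted value of Mt2 exceeded the highest undisturbed one by a narrow margin. Metallothionein genes have near-identical copies in the genome. How reads with several matches were handled is not given in the sources used here, so these low counts are uncertain. Mt3, the brain metallothionein, was at 0.70 ± 0.28 with overlapping groups, or at 0.41 after GC correction. The other 7 tested genes of the list, mainly zinc transporters, lay between −0.21 and 0.18, so that 5 of 10 were higher and the median was −0.02. The zinc exporter Slc30a1, itself inducible by zinc, was at −0.21 (interval −0.57 to 0.15).

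The 250 bases before the start of Mt2 are shown because zinc and other metals act on metallothionein genes through the metal response element. The search used the loose pattern TGCNCNC, where N is any base, on both strands, so not every match need be the element. The sequence is from RefSeq (GRCm38.p6, plus strand), 5′ to 3′, with matches in capitals. The window that the same table gives for Mt1 lies partly inside the annotated gene and is not used here.
Mt2, chr8:94172368-94172617: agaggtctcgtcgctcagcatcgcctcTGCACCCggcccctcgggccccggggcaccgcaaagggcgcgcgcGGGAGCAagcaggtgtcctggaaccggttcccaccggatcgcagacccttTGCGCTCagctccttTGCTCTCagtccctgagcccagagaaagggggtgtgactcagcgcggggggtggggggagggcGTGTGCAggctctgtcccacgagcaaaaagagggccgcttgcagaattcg
The Mt2 window held 5 matches, at 223, 178, 128, 113 and 50 bases before the start. This short motif is common: 44.41% of 32851 windows of the same length held it, and 56.73% of the genes tested that had one. It was in 7 of 9 genes of the metallothionein and zinc list (77.8%), 14 of 19 clock genes (73.7%) and 15 of 22 glucocorticoid targets (68.2%). A match is a description of letters and not of a bound site.

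Interferon-stimulated genes encode antiviral proteins that type I interferon induces. Of 36 tested members, 26 were lower and 10 higher after sleep disruption, with a median log2 fold change of −0.17 beside 0.00 over all genes. The mean log2 CPM over the list was 2.80, 2.94, 2.77 and 2.86 in undisturbed and 2.66, 2.72, 2.68 and 2.63 in sleep-disrupted libraries. This mean did not overlap between the groups, as in 2 of 37 lists, the other being the lymphocyte and neutrophil list. The summed CPM of the interferon genes did overlap, at 806 to 875 and 786 to 844. The median stayed between −0.21 and −0.13 when each of the 8 libraries was left out in turn, and it was −0.14 after correction for GC content. Member by member the differences were small. Without night library 4, 5 genes had lower values at an unadjusted p under 0.05, beside 2.56% of all genes in that direction. In the fit reported it was 1 gene, beside 0.901% of all genes. That gene was Oasl2, an oligoadenylate synthetase-like gene, at 8.01, 8.58, 5.69 and 5.67 CPM in undisturbed and at 4.21, 3.90, 5.0 and 3.75 CPM in sleep-disrupted libraries. All 4 sleep-disrupted values lay below all undisturbed ones, with a log2 fold change of −0.73 ± 0.20 (interval −1.17 to −0.29). Ifit3, which binds translation factors, was at 8.02 ± 0.833 CPM and 6.41 ± 0.860 CPM (−0.32 ± 0.15), and Usp18, a brake on interferon signalling, at 3.67 ± 0.531 CPM and 2.56 ± 0.859 CPM (−0.52 ± 0.27). Ifi27 had the opposite sign, at 0.17 (−0.11 to 0.45), as did Bst2, an antiviral tether, at 0.14 (−0.30 to 0.58). Ifi209, a DNA sensor gene of the interferon-inducible p200 family that was not a list member, was at 3.80, 2.92, 2.12 and 2.95 CPM against 1.34, 1.44, 2.11 and 0.938 CPM, a log2 fold change of −1.02 ± 0.36.

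The interferon-stimulated response element, searched on both strands, is the site through which interferon drives these genes, and the windows of the 2 list members with the smallest p are shown for it. They are 250 bases before the start site in the RefSeq promoter table (GRCm38.p6, plus strand), 5′ to 3′, with matches in capitals. The window of Oasl2 ends a few bases inside the annotated gene, and that of Ifit3 lies within it, before a start site downstream of the first annotated base.
Ifit3, chr19:34583279-34583528: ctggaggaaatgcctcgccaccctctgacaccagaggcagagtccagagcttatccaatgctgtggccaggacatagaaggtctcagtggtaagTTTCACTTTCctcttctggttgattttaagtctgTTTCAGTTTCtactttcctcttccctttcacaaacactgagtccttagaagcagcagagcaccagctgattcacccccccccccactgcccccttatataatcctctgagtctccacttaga
Oasl2, chr5:114896684-114896933: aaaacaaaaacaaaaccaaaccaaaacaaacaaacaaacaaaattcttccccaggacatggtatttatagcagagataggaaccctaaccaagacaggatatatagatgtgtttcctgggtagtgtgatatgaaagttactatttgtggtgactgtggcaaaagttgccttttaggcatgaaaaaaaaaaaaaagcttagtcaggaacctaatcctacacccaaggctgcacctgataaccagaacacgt
The Ifit3 window held 2 matches, at 156 and 122 bases before the start, and these letters were not found in the Oasl2 window. The motif was in 10 of 25 interferon list genes (40.0%), in 3.14% of the genes tested that had a window and in 2.98% of all 32851 windows.

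Genes of antigen presentation were lower in 14 of 19 cases, with a median of −0.11 that ranged from −0.18 to 0.05 when libraries were left out. The highest of these values was the one without undisturbed library 1. B2m, the light chain of MHC class I, was at 225, 218, 199 and 249 CPM in undisturbed and at 193, 175, 175 and 160 CPM in sleep-disrupted libraries. All sleep-disrupted values lay below the undisturbed ones (−0.34 ± 0.15, interval −0.68 to −0.01), and the difference in B2m was −0.22 after GC correction. The class I heavy chain genes H2-K1 and H2-D1 overlapped between groups, at −0.11 (−0.43 to 0.20) and −0.17 (−0.59 to 0.25). The class II gene H2-Aa was at 32.2 CPM in undisturbed library 1 and at 9.60 to 14.1 CPM in the other 7 libraries. Inflammatory genes of the NF-kB pathway had a median of −0.08 over 24 members and complement genes one of −0.12 over 17. With libraries left out, the first ran from −0.15 to −0.03 and the second from −0.21 without undisturbed library 3 to 0.02 without undisturbed library 1. The inflammatory receptor gene Il1r1, which rose by 0.60 at night, was at −0.02 after sleep disruption (interval −0.25 to 0.20). Il6 had 3 reads and Tnf 1 read in all 8 libraries together, too few for a test.

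**Figure D3:**
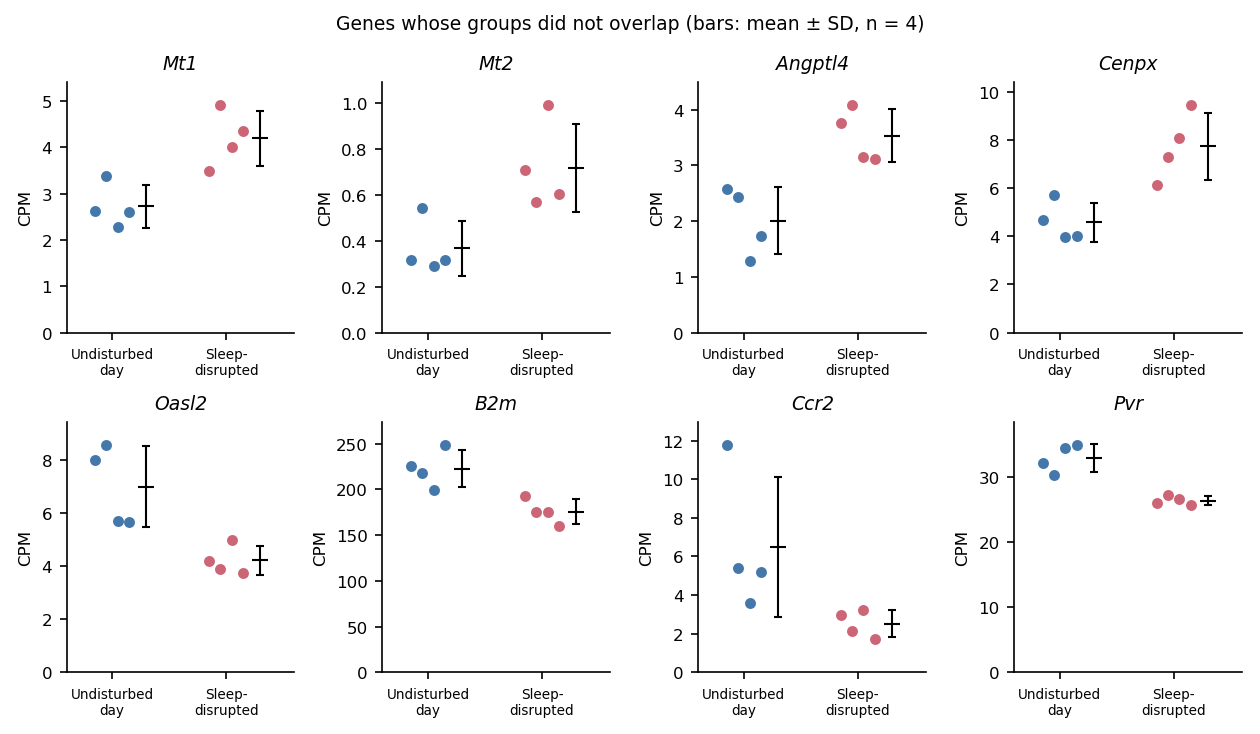
CPM (y axis, from 0) in each library for 8 genes whose undisturbed and sleep-disrupted libraries did not overlap, with the mean and SD of 4 libraries. Mt1, Mt2, Angptl4 and Cenpx were higher and Oasl2, B2m, Ccr2 and Pvr lower in every sleep-disrupted library; none passed the test after adjustment.

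Transcripts of immune cells had lower values after sleep disruption, and their tests depended on night library 4. Of 19 macrophage markers, 14 were lower and 5 higher, with a median of −0.28 (−0.11 without undisturbed library 2, −0.41 without undisturbed library 3) and summed levels of 102 to 182 CPM in undisturbed and 99.8 to 130 CPM in sleep-disrupted libraries. In bulk tissue, fewer cells of a type and less RNA per cell cannot be told apart. Ccr2, the chemokine receptor of monocytes, was at 11.8, 5.39, 3.61 and 5.20 CPM in undisturbed and at 2.95, 2.16, 3.23 and 1.74 CPM in sleep-disrupted libraries. The groups did not overlap, and the log2 fold change of −1.37 ± 0.46 became −0.91 ± 0.43 without undisturbed library 1. Ptprc, which encodes the leukocyte antigen CD45, was at 12.2, 7.56, 5.86 and 10.6 CPM against 5.22, 4.32, 5.26 and 4.15 CPM, again without overlap. Its log2 fold change was −0.94 ± 0.76 in the fit of 12 libraries and −0.94 ± 0.23 without night library 4, where Ptprc was at 78.8 CPM. Adgre1 was at 13.5, 10.9, 6.56 and 13.1 CPM in undisturbed and at 6.82, 6.47, 8.32 and 6.47 CPM in sleep-disrupted libraries. Its difference of −0.65 had an SE of 0.82 with night library 4 and 0.20 without it. Cx3cr1, the fractalkine receptor, was at 15.9 ± 4.59 CPM and 10.4 ± 1.07 CPM, and the border macrophage marker Mrc1 at 15.7 ± 6.07 CPM and 11.5 ± 0.585 CPM. Without night library 4, 7 of the 19 markers had lower values at an unadjusted p under 0.05, beside 2.56% of all genes in that direction, and the smallest adjusted p of any gene was 0.635. Undisturbed library 3 went against the rest of its group, with a macrophage score of 1.25 on the log2 scale, below all sleep-disrupted libraries (1.36 to 1.75), while the other undisturbed libraries lay at 1.84 to 2.2. Cysltr1, a leukotriene receptor gene outside the list, was lower in every sleep-disrupted library, at 14.2 to 25.3 CPM against 9.75 to 13.2 CPM (−0.69 ± 0.23). With the macrophage score as a covariate, the log2 fold change of Oasl2 was −0.64 and the interferon median remained −0.17. In that fit the score was 3.64 in night library 4 and 1.25 to 2.26 in the other libraries. Whether macrophage content accounts for the interferon values was not tested.

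Other cells of the dissected tissue differed by library. S100a9, a neutrophil gene, had a log2 fold change of −3.50 that rested on undisturbed library 3, with 8.89 CPM against 0.362 to 0.709 CPM in the other undisturbed libraries. Without that library it was −1.09. The neutrophil genes S100a8 and Ngp were also high only in that library among the 8, at 7.81 and 4.32 CPM. Endothelial markers had a median of −0.30, which was −0.60 without undisturbed library 3 and 0.02 without undisturbed library 2. Pecam1, an endothelial adhesion molecule, was at 5.57 CPM in undisturbed library 3 and at 11.6 to 29.8 CPM in the other undisturbed libraries. Genes of neurons and astrocytes were high in sleep-disrupted libraries 1 and 3. Slc1a2, the astrocyte glutamate transporter, was at 197 and 189 CPM there and at 15.1 and 27.6 CPM in sleep-disrupted libraries 2 and 4. Gad2, a marker of inhibitory neurons, was at 17.7 CPM in sleep-disrupted library 1 and at most 3.02 CPM in the other 7. Drd1, a dopamine receptor gene, was at 9.95 CPM there and at most 1.46 CPM elsewhere, which left it below the filter. Fibroblast markers had a median of 0.01, from −0.12 to 0.17 with libraries left out. Mural cell markers had one of −0.12, from −0.30 without undisturbed library 3 to 0.11 without undisturbed library 2. Hemoglobin transcripts were at or below 0.208 CPM in all 8 libraries.

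Genes of the cytosolic ribosome and of the respiratory chain were the lists with the most uniform direction. Of 80 ribosomal genes, 77 were higher after sleep disruption, with a median of 0.21 and 13 genes at an unadjusted p under 0.05. Of 74 nuclear genes of the respiratory chain, 68 were higher, with a median of 0.18 and 6 such genes. Over all genes tested, 1.50% had higher values at that p. Rps29, a protein of the small subunit, was at 9.42, 12.0, 7.60 and 8.38 CPM in undisturbed and at 11.9, 17.4, 14.7 and 17.7 CPM in sleep-disrupted libraries, a log2 fold change of 0.72 ± 0.19 (interval 0.32 to 1.13). Sleep-disrupted library 1 lay just below undisturbed library 2, and the other 3 lay above all undisturbed libraries. Rpl35, of the large subunit, was at 0.55 ± 0.21. Cox6c, a subunit of cytochrome c oxidase, was at 131, 131, 124 and 140 CPM and at 135, 162, 162 and 161 CPM, a log2 fold change of 0.24 ± 0.08. Cox7b of the same complex was at 0.19 ± 0.07 (0.32 after GC correction) and Ndufa1 of complex I at 0.24 ± 0.08. The genes of the chain that the mitochondrial genome encodes had the opposite sign, with 11 of 12 lower and a median of −0.12, from −0.21 to −0.04 with libraries left out. The member with a positive value was COX2, at 2.61 to 4.17 CPM and 3.71 to 18.2 CPM. Ribosomal and mitochondrial genes have many near-identical copies in the genome and the handling of reads with several matches is not given in the sources used here, so their counts are uncertain.

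The ribosomal and respiratory genes did not order the libraries by group. The mean log2 CPM of the ribosomal genes was 5.49, 5.65, 5.33 and 5.25 in undisturbed and 5.38, 5.79, 5.71 and 5.91 in sleep-disrupted libraries, so undisturbed library 2 sat with the high values and sleep-disrupted library 1 with the low ones. The trend of expression with the GC content of the transcripts had its lowest and highest values in the same libraries, at −0.11, 0.16, −0.16 and −0.37 log2 units per 10 points of GC in undisturbed and at −0.21, 0.13, 0.07 and 0.28 in sleep-disrupted libraries. After correction for this trend the medians of the ribosomal and nuclear respiratory genes were 0.20 and 0.16, and that of the mitochondrially encoded genes was 0.05 in place of −0.12. The number of ribosomal genes at an unadjusted p under 0.05 was 36 without sleep-disrupted library 1, 31 without undisturbed library 2 and 27 without night library 4. It was 6 without sleep-disrupted library 3, 3 without undisturbed library 1 or 4, 2 without sleep-disrupted library 2, and 1 without undisturbed library 3 or sleep-disrupted library 4. Over all genes tested the number was 966 without sleep-disrupted library 1, 1024 without undisturbed library 2 and 1073 without night library 4. Without each of the other daytime libraries it ran from 168 to 406, beside 359 in the fit reported. The night libraries gave the ribosomal genes a median of 0.21 against the same undisturbed libraries. What else differed between the libraries along this axis was not tested.

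**Figure D4:**
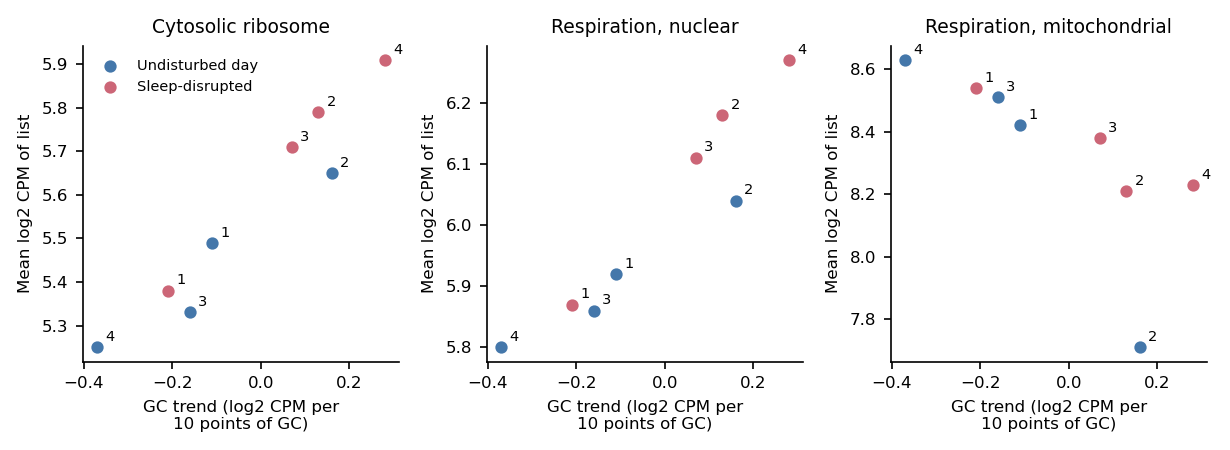
Mean log2 CPM of 3 gene lists (y axes) against the trend of expression with GC content (x axes, log2 CPM per 10 points of GC) in the 8 libraries, numbered within their group. Sleep-disrupted library 1 (ribosomal score 5.38) lies among the undisturbed points and undisturbed library 2 (5.65) beside the sleep-disrupted ones.

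Metabolic lists had smaller medians. Genes of fatty acid oxidation and PPAR targets were higher in 24 of 28 cases, with a median of 0.12, and 3 of them lay above without overlap, beside 0.968% of all genes. These were Angptl4, Acadm, the medium-chain acyl-CoA dehydrogenase gene, at 235 ± 9.14 CPM and 253 ± 7.2 CPM (0.11, interval −0.06 to 0.27), and Slc25a20, the mitochondrial carnitine carrier gene, at 55.0 ± 1.77 CPM and 60.1 ± 2.31 CPM (0.13, −0.01 to 0.27). At night the median of these genes was −0.10. Cholesterol synthesis genes were higher in 18 of 24 cases (median 0.09), oxidative stress genes of the NRF2 pathway in 19 of 31 (0.08), proteasome genes in 24 of 31 (0.04) and motile cilia genes in 24 of 33 (0.06). With single libraries left out, the medians of these 5 lists stayed between 0.02 and 0.15.

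**Figure D5:**
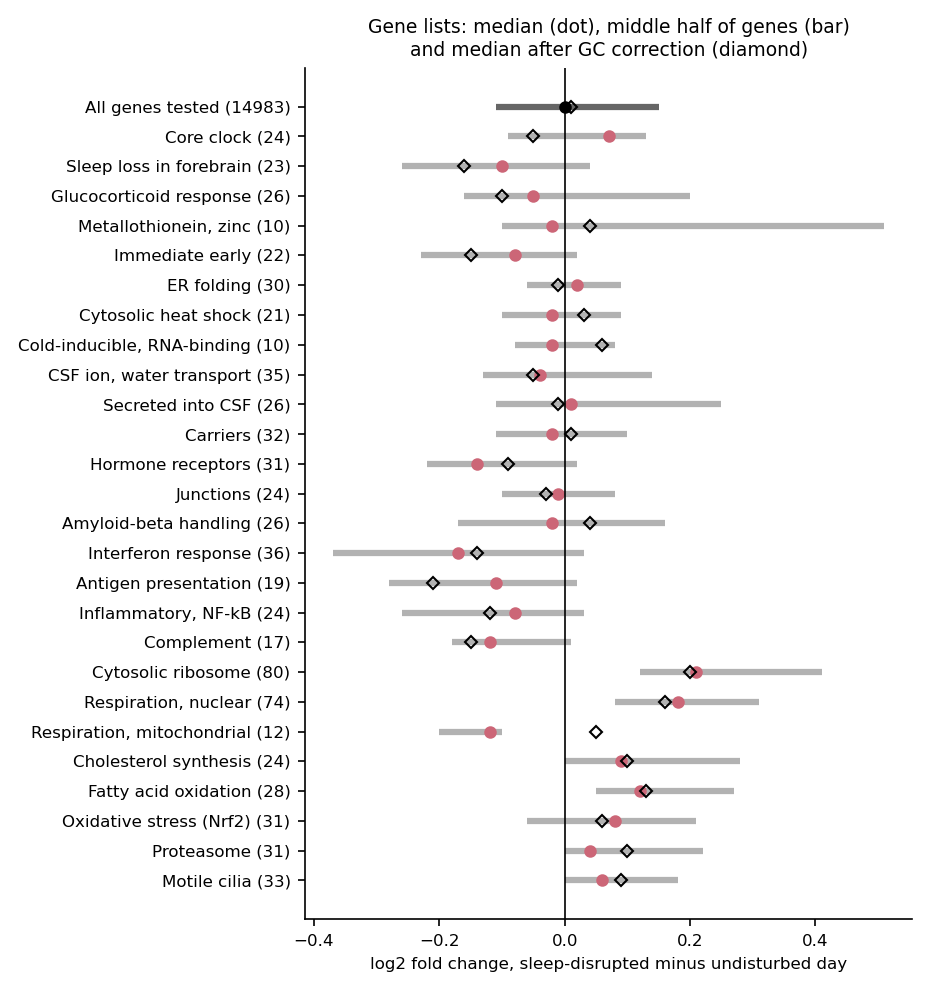
Median log2 fold change (dots, sleep-disrupted minus undisturbed day) and the interquartile range over genes (bars) for 26 gene lists and all genes tested, with the number of genes tested in brackets and the median after GC correction as a diamond. The ribosomal (0.21) and nuclear respiratory (0.18) lists have the highest medians and the interferon list (−0.17) the lowest.

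Several of the genes with the smallest p were in no list. Pvr, which encodes the poliovirus receptor CD155, a cell adhesion molecule, on chromosome 7 (GRCm38.p6, chr7:19903578-19921143), was at 32.2, 30.3, 34.4 and 35.0 CPM in undisturbed and at 26, 27.2, 26.6 and 25.7 CPM in sleep-disrupted libraries. All 4 sleep-disrupted values lay below all undisturbed ones, and the log2 fold change was −0.32 ± 0.08 (unadjusted p = 0.00158, adjusted p = 0.861, edgeR). Srcin1, a regulator of Src kinase, was at 7.32 to 7.94 CPM and 9.14 to 10.4 CPM (0.37 ± 0.10), and its log2 fold change was 0.14 ± 0.16 after GC correction. The naming rule asked for an unadjusted p under 0.05, no overlap between groups and an average level of 1 or more in log2 CPM. Placeholder symbols were left out. Over all 14983 genes tested, groups did not overlap upwards in 0.968% and downwards in 1.00%. The rule was met by 74 genes, 33 of them higher and 41 lower. The higher ones with the largest differences, besides Angptl4 and Mt1, were Cenpx, a centromere and DNA repair factor, at 4.58 ± 0.812 CPM and 7.72 ± 1.40 CPM (0.75), Dnaaf3, an assembly factor of ciliary dynein arms, at 5.35 ± 0.319 CPM and 8.11 ± 1.40 CPM (0.60, or 0.37 after GC correction), and Sirt7, a nuclear deacylase, at 2.86 ± 0.446 CPM and 4.29 ± 0.635 CPM (0.58). Aldoc, a glycolytic aldolase of astrocytes, was at 9.46 to 13 CPM and 13.1 to 19 CPM (0.50 ± 0.15). Below Ccr2, Ifi209, Oasl2 and Cysltr1, the lower ones included Hdac9, a histone deacetylase, at 11.8 ± 1.94 CPM and 8.14 ± 1.23 CPM (−0.54), Fhod3, a formin of the actin cytoskeleton, at 3.98 ± 0.573 CPM and 2.96 ± 0.285 CPM (−0.43), and Uhrf1, which maintains DNA methylation, at 2.91 ± 0.0922 CPM and 2.32 ± 0.172 CPM (−0.32).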

How the data were processed

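Gene counts were made by the authors and deposited as 1 table of whole-number counts per Entrez gene. Per the submitters' processing notes, HISAT2 2.2.1 and featureCounts 2.0.1 were used with the mm10 build, besides cutadapt, FastQC 0.11.8, DESeq2 and Picard 2.18.2. How strand and reads with several matches were handled was not given in the sources used here. Of 27179 identifiers, 25275 (93.0%) were matched to RefSeq symbols.

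Genes were kept by edgeR's filterByExpr over the 12 young libraries, scaled by TMM and tested in edgeR 4.0.16 (R 4.3.3) with the quasi-likelihood F-test and Benjamini-Hochberg adjustment over all genes kept. All 3 groups shared 1 estimate of the spread. Standard errors and 95% intervals come from the same fit. The steps were also run on simulated counts, drawn without the differences between libraries described above. That run does not show what these libraries could detect. List scores are mean log2 CPM with a prior count of 2. The correction for GC content used a loess trend per library with a span of 0.3. Alternatives were limma 3.58.1 (voom with quality weights), DESeq2 1.42.0, scaling by upper quartiles or by RLE, other filters, the 8 libraries alone, covariates for neural, stromal and macrophage scores, the GC correction and each library left out. Intervals cover the spread between libraries, which held 22466931 to 28219260 counts each in the daytime groups.

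The members and the 37 gene lists were chosen with earlier results of these data known. Genes were named where they had one of the 5 smallest p, where they were among the 10 highest or 10 lowest fold changes with an unadjusted p under 0.05, no overlap between groups and an average level of 1 or more in log2 CPM, where they were preset in a list, or where they had one of the 3 smallest p in a list. Ifi27, Bst2, H2-Aa, Acadm, Slc25a20, Adgre1, Ptprc and the genes named below the filter were chosen after their values were seen. Promoters from RefSeq were found for 677 of 899 list genes. Results for 4 further genes that the rule named are not reported here.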

Additional observations from a re-analysis of the deposited data

Results flagged for a closer look

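In 18 of 240 groups of 4 libraries examined (83 genes and 37 list scores in both groups), the highest or lowest library lay apart by Dixon's criterion. About 1 in 20 groups of independent, normally distributed values meet it. The groups examined share libraries, and some genes were chosen after their values were seen. The number flagged is therefore a description and is not measured against that rate. Sleep-disrupted library 3 was high for Fos (35.7 CPM against 4.72 to 5.90), for Egr1 (160 CPM against 17.3 to 34.2) and for the immediate early score (2.90 against 1.86 to 1.92 on the log2 scale). Sleep-disrupted library 1 was low for the respiratory genes Cox6c (135 CPM against 161 to 162), Cox7b (190 CPM against 215 to 217) and Ndufa1 (84.7 CPM against 100 to 102). The same library was high for Usp18 (3.84 CPM against 1.98 to 2.28), Il1r1 (160 CPM against 122 to 126) and Gad2 (17.7 CPM against 0.568 to 2.59), and low for the antigen presentation score (2.86 against 3.12 to 3.17). Undisturbed library 3 was low for the macrophage gene Mrc1 (6.61 CPM against 18.2 to 19.4) and high for the neutrophil gene S100a9 (8.89 CPM against 0.362 to 0.709). Undisturbed library 4 was high for Slc30a1 (178 CPM against 123 to 130) and Tfrc (255 CPM against 127 to 145). Undisturbed library 2 was high for Mt2 (0.543 CPM against 0.291 to 0.317), and undisturbed library 1 for H2-Aa (32.2 CPM against 9.60 to 12.6). The lowest oligodendrocyte score of the undisturbed group was 2.68, against 3.22 to 3.33, and the lowest ependymal score of the sleep-disrupted group was 2.62, against 3.26 to 3.38.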

How the results depend on the processing

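No gene was called under any of the 20 alternatives, among which the smallest adjusted p of any gene ran from 0.182 (limma-voom) to 1.000. The number of genes at an unadjusted p under 0.05, 359 in the fit reported, was 2907 with limma-voom, 168 with a filter of 10 CPM in 4 libraries (8785 genes tested), 657 with the 8 libraries alone and 865 with the neural score as a covariate. It ran from 168 to 1073 when single libraries were left out. It was 188, 200, 193, 239 and 168 without undisturbed library 1 or 4 or sleep-disrupted library 2, 3 or 4, and 1024, 966 and 1073 without undisturbed library 2, sleep-disrupted library 1 or night library 4. The cause of these shifts was not tested. Leaving out night library 4 was chosen after the data were seen. Of 3989 values of 203 named genes under the alternatives, 147 had the other sign, in 54 genes, and none of these was called. Of 738 list medians, 728 moved by less than the spread between libraries. No paired analysis was possible because the titles number the mice through the series and nothing pairs them between groups. With 4 libraries a group, the 95% interval of the median gene reached 0.37 to either side on the log2 scale. That is the width of an unadjusted interval and not the smallest difference that the adjusted test could detect. Ccr2, at −1.37, had an adjusted p of 0.861 (edgeR).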

Other observations

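Markers of further cell types that a dissected lateral-ventricle sample can hold were described by their median log2 fold change. Neuronal markers had a median of 0.16 over 18 genes, 10 of them higher. It was −0.32 without sleep-disrupted library 1 and −0.42 with limma-voom. Astrocyte markers had one of 0.10 over 10 genes, 5 of them higher, which was −0.11 without sleep-disrupted library 3. Oligodendrocyte markers had a median of −0.12, with 8 of 11 lower (from −0.17 to −0.05 with libraries left out), and ependymal markers one of −0.01, with 6 of 10 lower (from −0.10 to 0.06). The list of lymphocyte and neutrophil genes had 6 tested members, of which 5 were lower, with a median of −0.46 that was −0.79 with limma-voom and −0.20 with the macrophage score as a covariate. Of the 17 choroid epithelium markers, 12 were lower and 5 higher, with a median of −0.07.

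The E-box CACGTG, which CLOCK and BMAL1 bind, was in 5 of 19 clock genes (26.3%), 7 of 22 glucocorticoid targets (31.8%), 9.38% of the genes tested that had a promoter window and 6.02% of all 32851 windows. The glucocorticoid response element was in 2 of 22 glucocorticoid targets (9.1%), 0.33% of the genes tested and 0.39% of all windows. These matches describe letters only.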
